A study of Rattus norvegicus with 8 samples.

Results

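The 10 genes described here are known targets of the hypoxia-inducible factors (HIF) or enzymes of glycolysis, and they were taken by symbol from a table of 18090 genes. They are Vegfa, Slc2a1, Hk2, Pfkfb3, Aldoa, Pgk1, Eno1, Ldha, Pdk1 and Bnip3, and all 10 were found. They were measured in polyA RNA of abdominal aorta from wild-type (WT) rats. In 4 samples a filter paper with 10% FeCl3, an iron salt used to set off clotting in an injured artery, was laid around the aorta for 5 min. The 4 control aortas had a filter paper with 0.9% saline for the same 5 min. The comparison asked which transcripts differ in a thrombosed aorta, and the series describes the replicates of each condition as biologically independent. Rat strain, sex, age, whether animals were pooled and the time from exposure to harvest are not given in the sources used here.

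In cells short of oxygen, HIF proteins escape degradation, pair with the subunit Arnt and bind short DNA elements beside their target genes. Those targets bring glucose into the cell, speed its breakdown to lactate, keep pyruvate from being burnt in mitochondria, remove mitochondria and call in new vessels through VEGF. In an artery the wall cells, perivascular fat, blood cells and clot can all express these genes, and in bulk RNA fewer cells of a type and less RNA per cell cannot be told apart.

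Libraries held 24304434 to 30283292 fragments, a depth recovered from the steps of the FPKM values (fragments per kilobase of gene, scaled to the library total). The 7 smooth muscle markers were measured in every library, with a summed level of 3737 to 10702 FPKM after FeCl3 and 4792 to 25677 after saline. The libraries stood apart from each other in what else they held. Haemoglobin genes took 16.4% to 34.1% of fragments after FeCl3, and 1.63%, 1.30%, 1.49% and 16.5% in saline replicates 1 to 4. Saline replicate 2 had a summed level of 7531 FPKM over 3 brown adipocyte markers, where the other 7 libraries had 26.0 to 264.5 FPKM, and all 3 were highest there. Saline replicate 1 had 17886 FPKM over 8 heat shock genes, against 1105 to 2098 among the remaining controls and 807 to 1280.5 among the FeCl3 libraries. Values without saline replicate 1, 2 or 4 stand beside the results that they moved most. Where the library left out was the highest or lowest control of a gene, its fold change shifts by construction.

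None of the 10 genes passed the test for a change after FeCl3, and 8 of them had their highest level in a single control, saline replicate 2. That was not particular to the 10. Also highest there were 10 of 12 genes for pyruvate entry into mitochondria, 8 of 17 tested paralogues and 2 of 11 mitophagy genes. The share of all tested genes that were highest there was not counted. Of the 10, 7 had a lower mean on the log2 scale after FeCl3 and 3 a higher one. Slc2a1, the basal glucose transporter, was the only one whose FeCl3 and saline values did not overlap, at 5.82 ± 0.546 FPKM with FeCl3 against 10.98 ± 3.11 FPKM with saline (mean ± SD, n = 4 per group). The FeCl3 and saline values of the other 9 genes overlapped. Within families, Vegfa made up a smaller part of the VEGF ligands in every FeCl3 library than in any saline library, and Pdk1 a larger part of the Pdk kinases. Both shares were tested after their values were seen, and neither passed (exact permutation test, adjusted p = 0.129 over 9 shares). The groups overlapped once Vegfb was left out of the VEGF ligands or Pdk4 out of the Pdk kinases.

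In limma's moderated test on log2(FPKM + 1), 0 of the 10 genes passed at a Benjamini-Hochberg adjusted p under 0.05 over all 11921 genes tested, and 0.0% of all tested genes did. At an unadjusted p under 0.05 there was 1 gene, Slc2a1, which was lower after FeCl3. Of all tested genes 16.6% were under that p, and 12.2% were under it and lower. limma voom on recovered fragments gave 0 of 10 at either threshold. The groups did not overlap for 1 of the 10, which was lower after FeCl3, and 8.75% of all tested genes were lower without overlap. None of the 10 was higher without overlap, and 1.06% of all tested genes were. The share among the 10 is thus near the background. The median log2 fold change was -0.66 for the 10 genes and -0.25 for all tested genes, a difference of -0.41. Without saline replicate 2 the medians were -0.16 and -0.17, a difference of 0.02, with 6 genes lower and 4 higher. Without saline replicate 1 the difference was -0.66, and 9 genes were lower. Saline replicate 2 was the highest control for 9 of the 10 genes and saline replicate 1 the lowest for 7. Leaving out either one shifts the fold changes of those genes by construction, so neither value is separate evidence about a change. Of all tested genes 70.2% had a negative fold change. The median of all genes moved to -0.90 with values rescaled to TPM, which gives every library the same sum, and to -0.05 under median-of-ratios scaling, and in both cases 7 of the 10 genes lay below it, the same number as with FPKM.

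**Figure D1:**
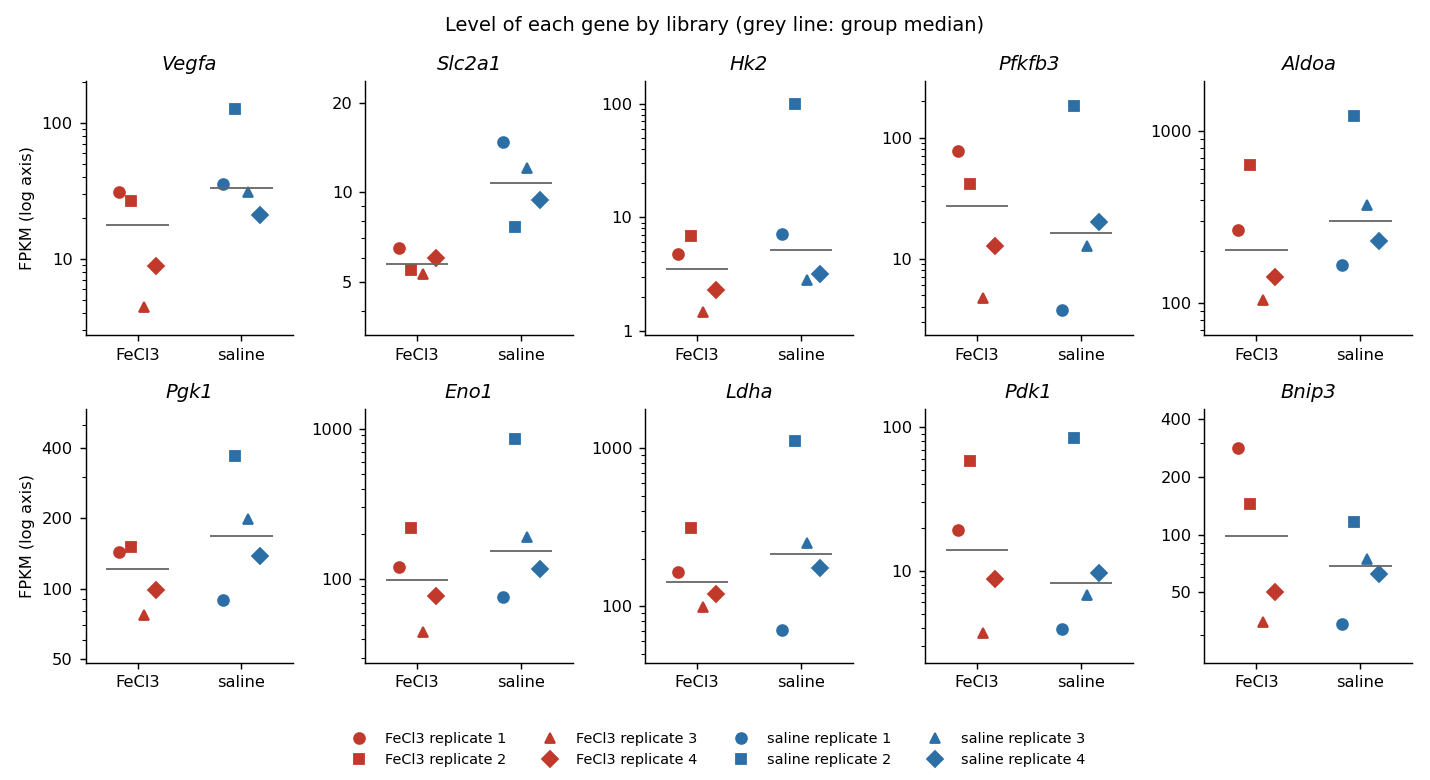
FPKM of each of the 10 genes (vertical, log axes of different range) in the 4 FeCl3 libraries (red) and the 4 saline libraries (blue), with marker shapes for replicates and a grey line at the group median. Saline replicate 2 (blue square) is the highest library in 8 of the 10 panels, FeCl3 replicate 3 (red triangle) is the lowest FeCl3 library in all 10, and only the Slc2a1 groups do not overlap.

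**Figure D2:**
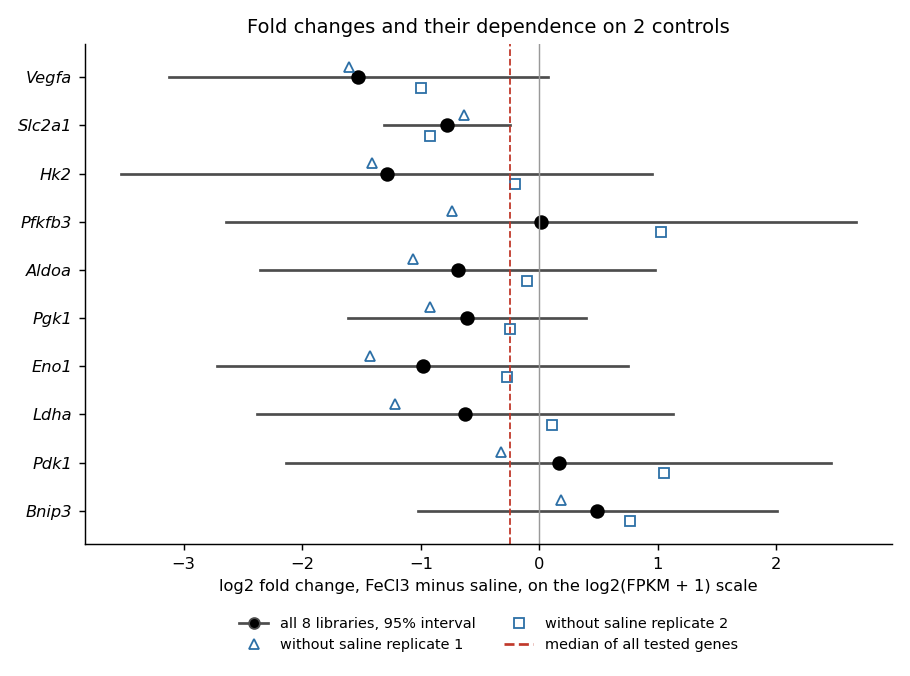
log2 fold change of each gene, FeCl3 minus saline, on the log2(FPKM + 1) scale, with its 95% interval in limma (black), and the value without saline replicate 1 (triangle) or saline replicate 2 (square). The dashed line is the median of all tested genes, -0.25. The squares of Pfkfb3, Ldha, Pdk1 and Bnip3 lie above 0, and those of Vegfa and Slc2a1 at -0.998 and -0.92.

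The promoters of 6 of the genes are shown because HIF binds a short core motif and because these genes differed in how they followed the libraries: Ldha, Pdk1, Pfkfb3 and Hk2 were highest in saline replicate 2, Bnip3 was highest in FeCl3 replicate 1 and Slc2a1 was lowest of the controls in saline replicate 2. Each is the 250 bases before the RefSeq start in the build GRCr8, read 5′ to 3′ on the gene's strand, with matches to the motif in capitals. The motif was searched as ACGTG and, in its other form, as GCGTG. The complements are CACGT for the first form and CACGC for the other, so both strands were covered. The first form and its complement overlap where the letters read CACGTG, which then count as 2 matches. The windows are chr1:106507842-106508091 on the plus strand for Ldha, chr3:77113264-77113513 plus for Pdk1, chr17:71944683-71944932 plus for Pfkfb3, chr5:138002272-138002521 plus for Slc2a1, chr1:203154963-203155212 minus for Bnip3 and chr4:116841276-116841525 minus for Hk2.
Ldha: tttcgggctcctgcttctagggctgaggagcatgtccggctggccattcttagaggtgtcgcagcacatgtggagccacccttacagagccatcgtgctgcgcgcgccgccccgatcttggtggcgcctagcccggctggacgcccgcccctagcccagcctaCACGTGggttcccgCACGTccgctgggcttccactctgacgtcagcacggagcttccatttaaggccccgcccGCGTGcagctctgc
Pdk1: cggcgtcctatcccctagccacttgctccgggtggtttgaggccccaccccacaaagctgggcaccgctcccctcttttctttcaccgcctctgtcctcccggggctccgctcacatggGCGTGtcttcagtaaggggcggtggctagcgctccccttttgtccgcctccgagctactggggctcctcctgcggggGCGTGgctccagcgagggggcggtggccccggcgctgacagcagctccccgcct
Pfkfb3: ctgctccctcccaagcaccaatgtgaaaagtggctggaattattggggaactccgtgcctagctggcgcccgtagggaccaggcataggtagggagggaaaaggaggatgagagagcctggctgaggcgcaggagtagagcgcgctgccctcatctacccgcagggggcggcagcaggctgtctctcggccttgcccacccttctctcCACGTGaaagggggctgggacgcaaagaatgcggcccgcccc
Bnip3: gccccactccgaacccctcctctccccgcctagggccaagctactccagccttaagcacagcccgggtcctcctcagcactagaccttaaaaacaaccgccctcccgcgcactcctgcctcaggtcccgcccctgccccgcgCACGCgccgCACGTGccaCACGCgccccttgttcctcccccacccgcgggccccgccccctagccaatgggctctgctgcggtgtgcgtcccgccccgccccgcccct
Slc2a1: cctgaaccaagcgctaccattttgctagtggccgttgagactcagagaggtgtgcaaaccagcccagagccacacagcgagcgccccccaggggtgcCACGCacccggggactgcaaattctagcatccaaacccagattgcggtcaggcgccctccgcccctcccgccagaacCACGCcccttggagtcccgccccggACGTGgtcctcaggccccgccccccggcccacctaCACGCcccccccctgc
Hk2: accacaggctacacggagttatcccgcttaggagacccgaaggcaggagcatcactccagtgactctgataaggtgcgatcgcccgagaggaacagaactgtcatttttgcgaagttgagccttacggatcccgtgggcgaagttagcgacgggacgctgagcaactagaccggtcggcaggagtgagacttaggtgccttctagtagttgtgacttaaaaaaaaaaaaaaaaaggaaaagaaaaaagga

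The printed windows held 4 matches in each of Ldha, Bnip3 and Slc2a1, 2 in Pdk1, 2 in Pfkfb3 that share a single CACGTG, and 0 in Hk2. In the 300-base windows from 250 before to 50 after the start, 7 of 9 genes with a RefSeq window had at least 1 match in any of their windows (Ldha, Aldoa, Bnip3, Pdk1, Slc2a1, Eno1 and Pfkfb3). Vegfa and Hk2 had none, which says only that these letters are not in these windows. A match was found in 41.6% of all 33469 RefSeq windows, and of all genes 44.6% had one in any window. At least 4 matches in a window were found for 4 of the 9 genes and for 3.90% of all genes. These genes were chosen as known HIF targets or enzymes of glycolysis, so this difference is no result of the expression data. Ldha, which was highest in saline replicate 2, held 6 matches in its 300-base window, and Slc2a1, which was not, held 4. The number of matches was not tested against expression.

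Vegfa encodes the main growth factor for endothelium and is a classical HIF target. It measured 31.1, 26.5, 4.39 and 8.80 FPKM in FeCl3 replicates 1 to 4 and 35.2, 126, 30.9 and 20.9 FPKM in saline replicates 1 to 4. FeCl3 replicates 3 and 4 lay below all controls, but FeCl3 replicates 1 and 2 lay within the range of the controls. The log2 fold change was -1.53 ± 0.70 SE (95% interval -3.13 to 0.07, limma adjusted p = 0.311), and it was -0.998 without saline replicate 2. It was the largest difference from the median of all genes among the 10, at -1.28. On the TPM scale Vegfa passed (-2.26 in log2, limma adjusted p = 0.0470), as did Slc2a1 and 27.6% of all tested genes. Nearly all of the genes that passed on that scale went the same way, 3223 lower and 65 higher after FeCl3.

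Slc2a1 encodes the glucose transporter GLUT1, which carries glucose into most cells. Its FeCl3 libraries held 6.50, 5.48, 5.29 and 6.01 FPKM and its saline libraries 14.8, 7.66, 12.1 and 9.43 FPKM. All FeCl3 values lay below all saline values, and among the FeCl3 libraries the highest was 1.23 times the lowest. These values rest on 351 to 1152 fragments per library. The log2 fold change was -0.78 ± 0.23 SE (95% interval -1.31 to -0.25, limma adjusted p = 0.245), or -0.53 relative to all genes. No gene had a smaller adjusted p, but Slc2a1 shared this value with others, among them Bpgm and Bnip3l, described below. The unadjusted limma p was 0.00914 for Slc2a1 and 0.00363 for Bpgm. Leaving out libraries, or changing the pseudocount, the filter, the trend or the weights in limma, cannot make separate groups overlap. Of the alternatives that rescale the values, TPM kept the groups apart. They overlapped in the other 4, namely median-of-ratios scaling, quantile normalization, voom and haemoglobin genes left out of the total. In these 4 the share of all genes that were lower without overlap was 3.46%, 3.60%, 3.68% and 2.64%. Slc2a1 was also the gene of the 10 that did not follow saline replicate 2, which had the lowest Slc2a1 of the controls. Its order among the saline libraries (replicates 1, 3, 4, 2) was that of their smooth muscle markers, with summed levels of 25677, 15144, 9696 and 4792 FPKM. Among the FeCl3 libraries Slc2a1 was highest in replicate 1, which had the lowest smooth muscle sum, 3737 FPKM. The part of the markers in these levels was not tested.

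Hk2 and Pfkfb3 act early in glycolysis. Hexokinase 2 traps glucose as its phosphate, and Pfkfb3 makes the sugar bisphosphate that switches on phosphofructokinase. Hk2 measured 4.78, 6.80, 1.46 and 2.27 FPKM in the FeCl3 libraries and 7.19, 99.5, 2.80 and 3.13 FPKM in the saline libraries. Saline replicate 2 held 13.8 times the Hk2 of the next saline library, and the remaining 7 libraries ranged together from 1.46 to 7.19 FPKM. The log2 fold change was -1.29 with an SE of 0.98 (adjusted p = 0.507 in limma) and -0.21 without saline replicate 2. Pfkfb3 measured 77.5, 41.6, 4.68 and 12.8 FPKM after FeCl3 and 3.73, 184, 12.7 and 20.1 FPKM after saline. Here FeCl3 replicates 1 and 2 and saline replicate 2 stood above the other 5 libraries, so that the spread within each condition was 16.5-fold and 49.2-fold. The log2 fold change of Pfkfb3 was 0.01 ± 1.17 SE (95% interval -2.64 to 2.67), which leaves differences of several fold in either direction possible. It was 1.03 without saline replicate 2 and -0.73 without saline replicate 1.

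Aldoa, Pgk1, Eno1 and Ldha encode abundant enzymes further down the pathway. Aldolase A splits the sugar, phosphoglycerate kinase and enolase handle the fragments, and lactate dehydrogenase A turns pyruvate to lactate. Aldoa had 268, 639, 104 and 143 FPKM after FeCl3 and 166, 1222, 371 and 230 FPKM after saline. Eno1 had 120, 218, 44.7 and 77.7 FPKM after FeCl3 and 75.7, 847, 190 and 116 FPKM after saline. Ldha had 164, 312, 98.6 and 119 FPKM after FeCl3 and 70.0, 1112, 250.5 and 175 FPKM after saline. In all 3 genes saline replicate 2 was the highest library and FeCl3 replicate 2 the highest after FeCl3. Pgk1 spread less, with 143, 151, 77.1 and 98.6 FPKM after FeCl3 and 89.5, 367, 199 and 137 FPKM after saline. All 4 had negative log2 fold changes with intervals across 0: -0.69 ± 0.73 SE for Aldoa, -0.61 ± 0.44 for Pgk1, -0.98 ± 0.76 for Eno1 and -0.63 ± 0.77 for Ldha (limma adjusted p of 0.639, 0.485, 0.513 and 0.687). Without saline replicate 2 they were -0.11, -0.25, -0.28 and 0.10, so that Ldha turned positive. Without saline replicate 1, which had the lowest saline level of all 4, they were -1.06, -0.92, -1.43 and -1.22.

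Pdk1 and Bnip3 act on mitochondria. The kinase Pdk1 switches off pyruvate dehydrogenase and so keeps pyruvate from being burnt, and Bnip3 sits on the outer mitochondrial membrane and marks mitochondria for removal. Pdk1 measured 19.2, 58.2, 3.65 and 8.71 FPKM after FeCl3 and 3.90, 84.4, 6.74 and 9.56 FPKM after saline. FeCl3 replicate 2 and saline replicate 2 held the 2 highest values. The log2 fold change was 0.16 with an SE of 1.01 (adjusted p = 0.941 in limma). It was 1.05 without saline replicate 2 and -0.33 without saline replicate 1. Bnip3 measured 285, 146, 34.9 and 50.3 FPKM after FeCl3 and 34.3, 117, 74.5 and 62.2 FPKM after saline. It was the only gene of the 10 with its highest value in an FeCl3 library, replicate 1, and its groups overlapped over almost all of the saline range. Its log2 fold change was 0.49 with an SE of 0.67 (adjusted p = 0.717 in limma), -0.05 without FeCl3 replicate 1, 0.18 without saline replicate 1 and 0.76 without saline replicate 2.

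Most of the 10 genes were high and low in the same libraries, Slc2a1 being an exception among the controls. FeCl3 replicate 3 was the lowest FeCl3 library for all 10 genes and the lowest of the 8 for 7 of them, and it also held the highest haemoglobin share, 34.1%. A typical gene was low there too. The median-of-ratios factor, the level of a typical gene relative to other libraries, was 0.745 there. It was 0.931 to 1.03 in the other FeCl3 libraries and 0.792, 1.22, 1.25 and 1.15 in saline replicates 1 to 4. Saline replicate 1, the lowest of these controls, had a haemoglobin share of 1.63%, and saline replicate 4 had 16.5%. The share of all tested genes that were lowest there was not counted. FeCl3 replicate 2 was the highest FeCl3 library for 6 genes and FeCl3 replicate 1 for the other 4. The median of log2(FPKM + 1) over the 10 genes was 7.26 in saline replicate 2, 6.61 in FeCl3 replicate 1 and 6.54 in FeCl3 replicate 2, and 3.91 to 5.62 in the other 5 libraries. Those 3 libraries also had the highest sums over 6 white adipocyte markers, 2478, 5150 and 2859 FPKM in the same order, where the other 5 had 0.322 to 1075 FPKM. Ucp1, the uncoupling protein of brown fat, measured 6272 FPKM in saline replicate 2, 76.5 in FeCl3 replicate 2, 53.1 in saline replicate 3, 11.7 in saline replicate 4 and under 1 FPKM in the remaining 4. Saline replicate 1 had no detected Lep, Cfd, Cidec or Retn, 4 of the 6 white adipocyte markers, and Cox8b of the brown list was at 0 there and in FeCl3 replicate 3. The part of fat cells in the levels of the 10 genes was not tested.

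**Figure D3:**
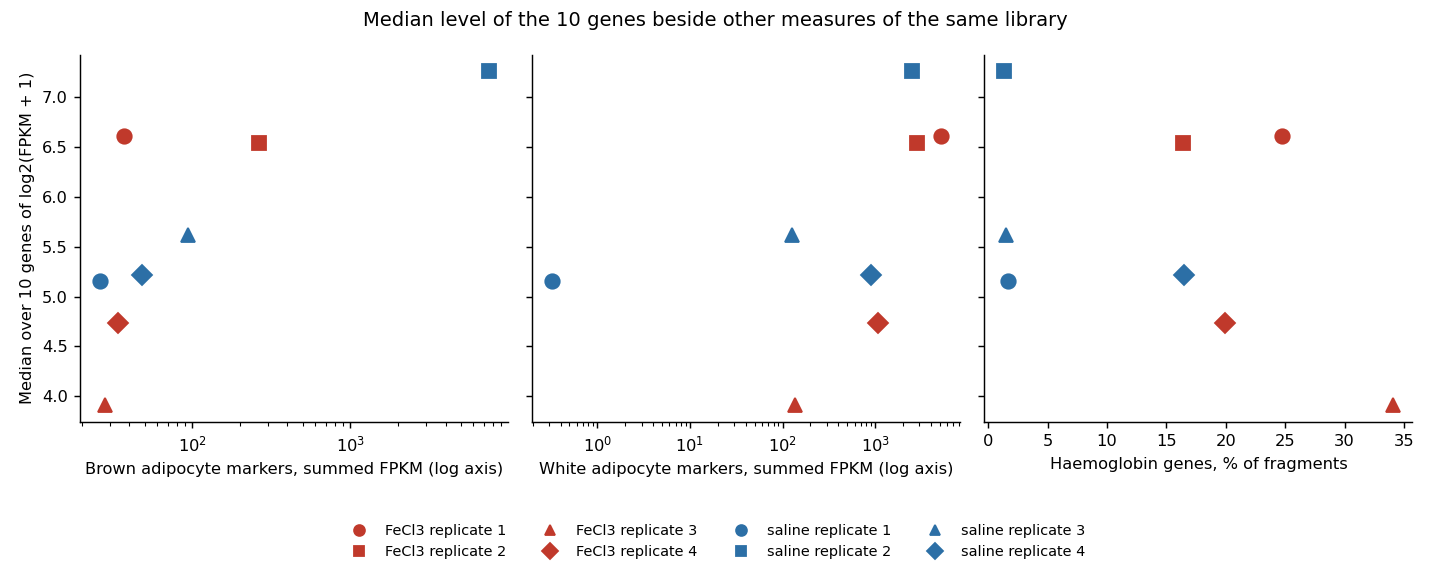
Median over the 10 genes of log2(FPKM + 1) in each library (vertical) against the summed FPKM of 3 brown adipocyte markers (left, log axis), of 6 white adipocyte markers (middle, log axis) and the haemoglobin share of fragments in % (right). Saline replicate 2 is at the far right of the left panel, at 7531 FPKM, and FeCl3 replicate 3, the lowest library at 3.91, has the highest haemoglobin share.

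FPKM is scaled by gene length, so levels can be compared between genes. By the group median, the order was Aldoa, Ldha, Pgk1, Eno1 and Bnip3 in both conditions, from 205 to 97.9 FPKM after FeCl3 and from 300.5 to 68.4 FPKM after saline. Pfkfb3, Vegfa, Pdk1, Slc2a1 and Hk2 followed after FeCl3 (27.2 to 3.53 FPKM), and Vegfa, Pfkfb3, Slc2a1, Pdk1 and Hk2 after saline (33.0 to 5.16 FPKM). The ranges of every 2 neighbours in these orders overlapped.

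The share of a gene within its family is free of the library total, since both are measured in the same library. Vegfa made up 47.7%, 39.4%, 25.7% and 32.9% of the summed FPKM of 5 VEGF ligands (Vegfa, Vegfb, Vegfc, Vegfd and Pgf) in the FeCl3 libraries and 53.1%, 76.0%, 60.8% and 51.1% in the saline libraries. Every FeCl3 value lay below every saline value, with means of 36.4% ± 9.36 and 60.3% ± 11.3 (SD, n = 4 each; exact two-sided permutation p = 0.0286, the smallest that 4 against 4 allows, adjusted p = 0.129 over 9 family shares). The groups also separated when Vegfc, Vegfd or Pgf was left out, but not without Vegfb, another VEGF ligand. The ratio of Vegfa to Vegfb was 1.22, 0.895, 0.751 and 0.986 after FeCl3 and 3.86, 3.95, 2.59 and 1.78 after saline. Thus Vegfa was at most 1.22 times Vegfb in the FeCl3 libraries and at least 1.78 times in the controls. In limma the log2 difference was 0.00 for Vegfb, with an SE of 0.56 and an adjusted p of 0.998. For Vegfc, a lymphatic growth factor, it was -0.16 with an SE of 0.38 (adjusted p = 0.846). For Pgf it was -0.35 (adjusted p = 0.642), and Vegfd lay below the filter on low values.

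Pdk1 made up 23.6%, 41.5%, 28.5% and 29.4% of the 4 Pdk kinases after FeCl3 and 10.1%, 11.9%, 13.3% and 21.1% after saline. Every FeCl3 value lay above every saline value (30.8% ± 7.60 and 14.1% ± 4.86, SD, n = 4 each; exact two-sided permutation p = 0.0286, adjusted p = 0.129 over 9 shares). This separation rested on Pdk4, the isoform induced by fatty acids and fasting: without it in the family Pdk1 made up 35.4% to 65.3% after FeCl3 and 29.4% to 53.0% after saline. Pdk4 measured 31.0, 51.1, 2.48 and 9.71 FPKM after FeCl3 and 29.4, 553, 27.9 and 17.0 FPKM after saline (log2 difference -1.79 with an SE of 1.19, adjusted p = 0.455 in limma). Its log2 difference was -0.67 without saline replicate 2. For Pdk2 and Pdk3 limma gave -0.20 and -0.03 in log2, with adjusted p of 0.914 and 0.953. The family shares were tested after their values were seen.

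The other 7 shares overlapped between conditions, with adjusted p of 0.514 to 0.857 in the same exact permutation tests. Bnip3 made up 48.4%, 52.4%, 7.54% and 17.8% of Bnip3 and Bnip3l after FeCl3 and 59.4%, 67.8%, 66.1% and 24.3% after saline, so that saline replicate 4 and FeCl3 replicates 3 and 4 were low together. Bnip3l, the mitophagy receptor that clears mitochondria from maturing red cells, measured 303.5, 132, 429 and 232 FPKM after FeCl3 and 23.4, 55.5, 38.2 and 194 FPKM after saline. Its log2 fold change was 2.15 with an SE of 0.63 (adjusted p = 0.245 in limma), and the control that reached into the FeCl3 range was saline replicate 4, the one with a haemoglobin share of 16.5%. Without saline replicate 4 Bnip3l passed, with a log2 difference of 2.74 (adjusted p = 0.0364 in limma), as 1.34% of all tested genes did. Leaving out the highest control widens the difference by construction, so this pass is not separate support for a change. Ldha made up 57.5% ± 9.21 of the lactate dehydrogenases after FeCl3 and 65.2% ± 9.12 after saline, Aldoa 92.8% ± 9.06 and 88.2% ± 12.7 of the aldolases, and Eno1 82.7% ± 8.21 and 84.1% ± 10.8 of the enolases (SD, n = 4 each). In every library Aldoa and Eno1 were thus the main isoform of their enzyme. Hk2 was a minor hexokinase beside Hk1 in 7 libraries, with 4.04% to 44.7%, and the main one in saline replicate 2, with 87.9%. Slc2a1 made up 2.64% of Slc2a1, Slc2a3 and Slc2a4 in saline replicate 2, where Slc2a4, the insulin-regulated transporter of fat and muscle, measured 274 FPKM, and 33.7% in saline replicate 1.

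**Figure D4:**
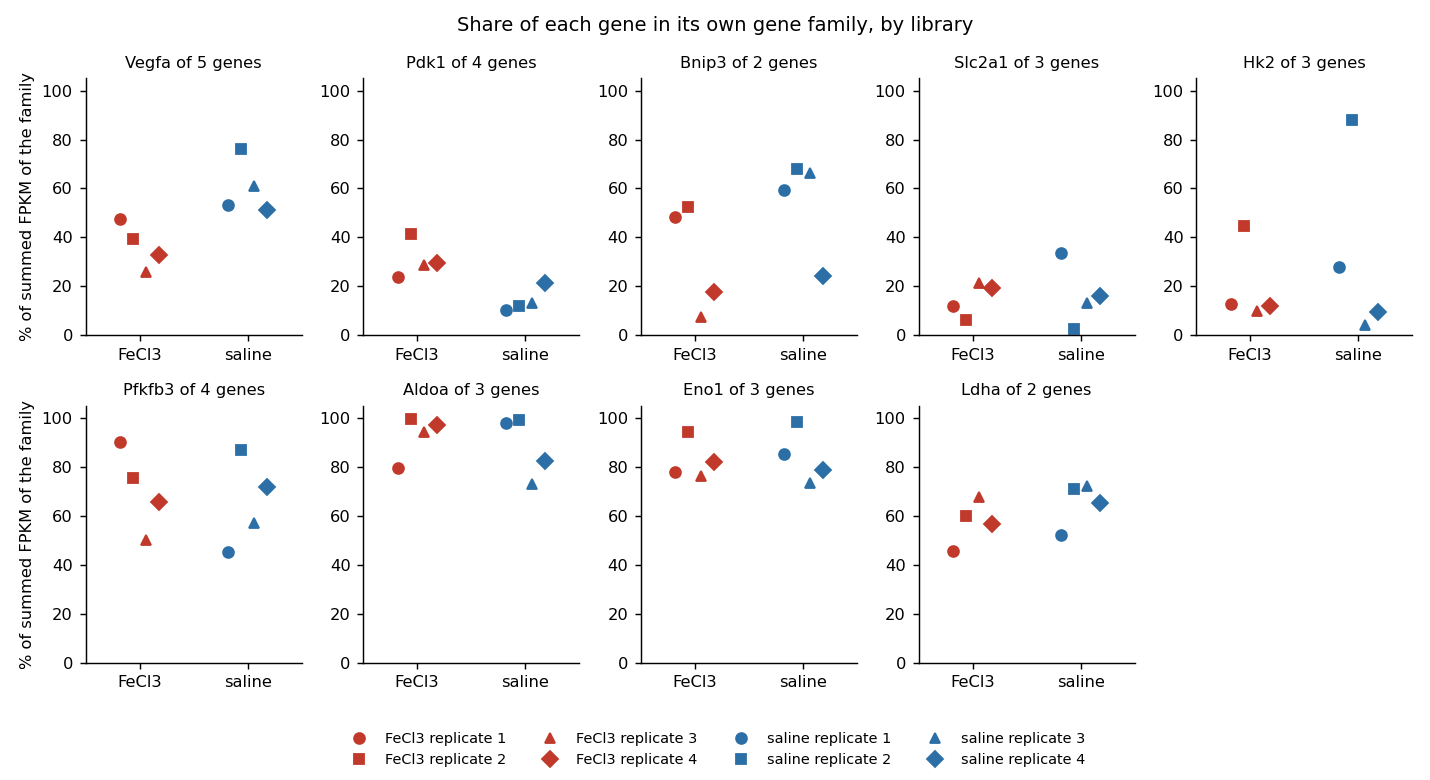
Share of each gene in the summed FPKM of its own gene family, in % (vertical, from 0), for the 4 FeCl3 (red) and 4 saline (blue) libraries. The Vegfa values after FeCl3 (25.7% to 47.7%) lie below those after saline (51.1% to 76.0%), the Pdk1 values after FeCl3 lie above, and the other 7 panels overlap.

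The rest of the pathway was described by lists of further enzymes, transporters, sensors and targets. No gene in them passed over all genes tested with all 8 libraries. Of 15 other glycolytic enzymes tested, 13 had a negative and 2 a positive log2 fold change, with a median of -0.36 relative to all genes, and 7 were highest in saline replicate 2. Without that library the median was 0.07. Bpgm, which makes the bisphosphoglycerate that loosens oxygen from haemoglobin in red cells, was the most abundant of the list and higher on average after FeCl3. It measured 1062, 456, 1432 and 606 FPKM after FeCl3 and 44.3, 45.7, 62.1 and 531 FPKM after saline (log2 difference 3.13 with an SE of 0.80, adjusted p = 0.245 in limma). Among the controls, saline replicate 4 alone lay within the FeCl3 range, as it did for Bnip3l. Without it Bpgm passed, with a log2 difference of 3.98 (adjusted p = 0.0106 in limma), as 1.34% of all tested genes and 0 of the 10 did. Here too the control left out was the highest one, so the pass is not separate support for a change. The summed level of 13 erythroid markers was 284475 to 612631 FPKM after FeCl3, 285396 in saline replicate 4 and 22629 to 28315 for controls 1 to 3, and its part in Bpgm and Bnip3l was not tested.

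The 8 glucose and lactate transport genes tested were all lower on average after FeCl3, and their median lay -0.26 from that of all genes. On the TPM scale it lay -0.28 from it, and with median-of-ratios scaling again -0.26. Slc16a7, a carrier of lactate and pyruvate, was the one gene of the list without overlap, with 1.93, 3.32, 2.55 and 3.20 FPKM after FeCl3 and 3.66, 4.34, 6.44 and 3.77 FPKM after saline (log2 difference -0.56 with an SE of 0.24, adjusted p = 0.299 in limma). That is 1 of 8 genes, or 12.5%, where 8.75% of all tested genes were lower without overlap. For Slc2a3, a high-affinity glucose transporter, and Slc2a4 limma gave -1.03 and -0.80 in log2, with adjusted p of 0.427 and 0.630. Of 12 genes for pyruvate entry into mitochondria, 10 were negative, 10 were highest in saline replicate 2, and the relative median was -0.08 with that library and 0.42 without it. Mpc1, a subunit of the mitochondrial pyruvate carrier, had 902 FPKM in FeCl3 replicate 2 and 921 FPKM in saline replicate 2, and 56.4 to 106 FPKM in the other 6 libraries. These were the 2 libraries with the highest summed brown adipocyte markers.

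Of 12 HIF subunits and oxygen sensors tested, 9 were negative and 3 positive, with a relative median of -0.18. Hif1an, the hydroxylase that blocks HIF from its coactivators when oxygen is present, was without overlap: 5.48, 4.05, 5.33 and 5.48 FPKM after FeCl3 and 7.89, 13.9, 7.44 and 7.85 FPKM after saline (log2 difference -0.72 with an SE of 0.24, adjusted p = 0.258 in limma). It was the only 1 of the 12, or 8.33%, and 8.75% of all tested genes were lower without overlap. Hif1a itself, named after its values were seen, had a mean ± SD of 18.2 ± 4.08 FPKM with FeCl3 against 29.7 ± 13.3 FPKM with saline (n = 4 per group, adjusted p = 0.383 in limma). Of 25 other HIF target genes tested, 19 were negative and 6 positive, with a relative median of -0.24. Of 7 VEGF ligands and receptors tested, a list that does not hold Vegfa, 5 were negative, with a relative median of -0.10.

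Of 11 genes of receptor-mediated mitophagy, 6 were positive and 5 negative, and the relative median was 0.61. It was 0.57 with TPM and 0.64 with median-of-ratios scaling. Bnip3l, described above with Bnip3, was its most abundant gene.

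**Figure D5:**
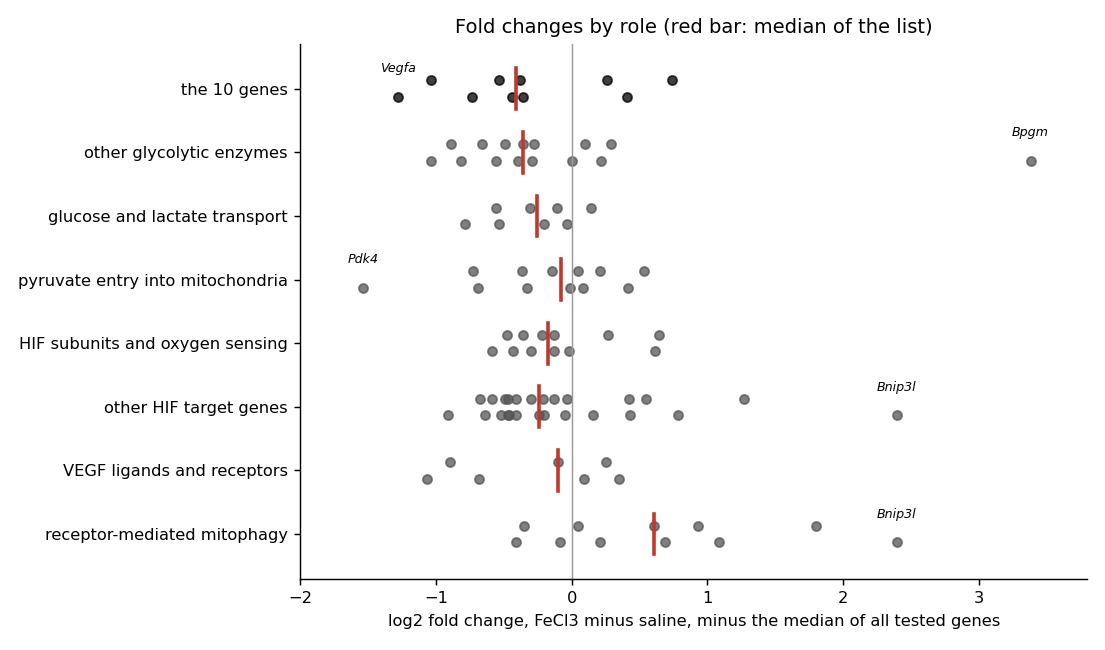
log2 fold change of each tested gene, FeCl3 minus saline, minus the median of all tested genes (horizontal), by role, with a red bar at the median of each list and names beside those of the 10 genes, their paralogues and Bpgm that lie farthest out. The 10 genes have a median of -0.41, the mitophagy list one of 0.61, and Bpgm lies at 3.38 apart from the other glycolytic enzymes.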

How the data were processed

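The authors deposited 1 table of FPKM values for 18090 genes in 8 libraries of rat abdominal aorta. Per the labels' protocols, a mirVana kit served for RNA and a VAHTS Universal V6 kit for the libraries. The tools in the submitters' processing notes are fastp, HISAT2 and HTSeq, with the build mRatBN7.2. Their versions, the annotation and any strand setting are not given in the sources used here. Columns were matched to samples by title, with 0 value columns left unmapped, and the labels give 1 batch. Replicates are numbered in accession order.

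Fragments were recovered from the steps of the deposited FPKM values, and 100% of genes came out whole within a tolerance of 0.02. They summed to at least 99.8% of each library's total. The recovery and the test were tested on simulated data. The fragments set the depth, the haemoglobin shares and the voom alternative. At most 1.31% of genes had equal fragments in any of 28 pairs of libraries.

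The test was limma 3.58.1 in R 4.3.3 (trend, two-sided) on log2(FPKM + 1), FeCl3 against saline, for the 11921 genes that reached 1 FPKM in 4 or more libraries, with a threshold of 0.05 after Benjamini-Hochberg adjustment. All 10 genes passed this filter. Fold changes on this scale understate those of low genes. Further genes named are the paralogues of the 10 and, per list, those whose groups did not overlap or, where there were none, the most abundant. Exceptions are marked, and some genes under this rule are not reported here. The genes and lists were chosen with earlier results of these data known. Of 228 list entries 225 were found. Family shares with exact permutation tests were added after values were seen. Promoters came from RefSeq (GRCr8) and matched 9 of 10 genes. Alternatives used pseudocounts of 0.1 and 0.01, other filters, scalings and fits (voom with trimmed-mean factors), and left out libraries. Figures were drawn with matplotlib 3.10.9.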

Additional observations from a re-analysis of the deposited data

Results flagged for a closer look

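Of 80 groups of 4 libraries examined, over 31 genes and 9 family shares, 7 held a library far from the other 3, where chance alone gives about 1 in 20. Among the 10 genes this was the share of Hk2 in its family in FeCl3 replicate 2, at 44.7% against 9.74% to 12.8% in the other FeCl3 libraries. Pdk4 in saline replicate 2 had a log2(FPKM + 1) of 9.11, or 553 FPKM against 17.0 to 29.4 in the other controls. Mpc1 in FeCl3 replicate 2 had 9.82, or 902 FPKM against 77.7 to 106. Hif1an stood apart in both conditions, at 2.34 in FeCl3 replicate 2 (4.05 FPKM against 5.33 to 5.48) and at 3.90 in saline replicate 2 (13.9 FPKM against 7.44 to 7.89). Slc2a3 in FeCl3 replicate 1 had 4.49, or 21.5 FPKM against 4.04 to 5.40. Bpgm in saline replicate 4 had 9.06, or 531 FPKM against 44.3 to 62.1.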

How the results depend on the processing

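Of 200 alternative values for the 10 genes, 182 kept their direction and their side of the threshold. Vegfa, Slc2a1, Hk2, Pgk1, Aldoa and Eno1 kept a negative fold change in all alternatives run. With a library left out, the fold change ran from -0.73 to 1.03 for Pfkfb3, from -0.49 to 1.05 for Pdk1, from -0.0468 to 0.950 for Bnip3 and from -1.22 to 0.10 for Ldha. With FPKM rescaled to TPM it was -0.67 for Pfkfb3, -0.51 for Pdk1 and -0.24 for Bnip3. On that scale 2 of the 10 genes passed (Vegfa and Slc2a1) among 3288 genes in all, of which 3223 were lower. With saline replicates 2 and 3 as the only controls the fold changes of Pfkfb3, Pdk1 and Bnip3 were -1.15, -0.75 and -0.00928. With those controls 0 of the 10 passed, and 51 genes passed in all. With 1 library left out 0 to 160 genes passed, 160 without saline replicate 4 and 0 without any other, and 0 of the 10 in each case. The causes were not tested. The median of the 10 relative to all genes was -0.66 with saline replicate 1 left out and 0.02 with saline replicate 2 left out, the ends of the range over single libraries left out; with saline replicates 2 and 3 as the only controls it was -1.02. The share of Pdk1 in its family differed by 13.1 to 19.1 percentage points with a library left out, and that of Vegfa by -27.6 to -18.6. No paired analysis was possible because the groups share fewer than 2 numbers in the labels. The value of the 10 genes with the fewest fragments, Hk2 in FeCl3 replicate 3, rested on 137 fragments, and the effect of depth on the calls was not tested.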

Other observations

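Some relatives of the 10 genes were ordered by other libraries. Aldoc, Eno2, Hk1 and Slc2a3, isoforms known from nerve tissue, were all highest in saline replicate 3, with 137, 55.6, 66.4 and 43.6 FPKM. Their values in the other libraries were 1.85 to 68.8, 2.16 to 26.9, 8.28 to 32.3 and 4.04 to 21.5 FPKM. The summed level of 6 Schwann cell markers was 1140 FPKM in saline replicate 3, 1480 in saline replicate 4, 980 in FeCl3 replicate 1 and 162 to 432 in the other 5 libraries. Its part in these levels was not tested.

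P4ha1 and Plod2, HIF targets that modify collagen, were highest in saline replicate 1, at 146 and 239 FPKM. P4ha1 had 20.2 to 31.4 FPKM and Plod2 17.5 to 129 FPKM elsewhere. That library also held the highest Slc2a1. P4ha1 and Plod2 were named after their values were seen.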
